A study of Homo sapiens with 12 samples.

Results

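My5.CRBN cells kept in 10 μM lenalidomide over 5 days (120 hours) were compared with un-treated My5.CRBN cells and with My5.CRBN cells treated for 3 days (72 hours). The members were these 3 of the 12 miRNA PCR arrays of the series, taken by their labels, and all 372 human miRNA assays that each array holds. The value of an assay is its threshold cycle (Ct), the PCR cycle at which the signal crosses a set level, so that 1 cycle earlier stands for about a doubling of template on the log2 scale. Each condition was a single array, so no difference below has a replicate check, no test was run, and an miRNA was called higher or lower when its level differed at least 3 fold.

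OCI-My5 is a human multiple myeloma line with little cereblon (CRBN). My5.CRBN cells are OCI-My5 cells that were infected with a lentiviral vector carrying His-tagged CRBN and sorted for the GFP of the vector, and My5.LV cells carry the vector alone. The 6 arrays compared here (un-treated, 3 days and 5 days in each line) were of cells with neither EIF2C2 (AGO2) overexpression nor EIF2C2 shRNA. The other 6 of the 12 arrays were of both lines with EIF2C2 shRNA, or with EIF2C2 overexpression without and with 3 days of lenalidomide. They were used only for ranks and ranges over all arrays and for the cel-miR-39-3p wells. The un-treated arrays are labelled as having no treatment, and what vehicle they received is not given there.

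Lenalidomide binds CRBN, the substrate receptor of an E3 ubiquitin ligase, and redirects the ligase to the lymphoid transcription factors ikaros and aiolos. A miRNA is cut from a hairpin precursor as a pair of arms, 5p and 3p, and one of them is usually kept in an Argonaute protein such as AGO2 while the other is degraded. The kept arm finds its messenger RNAs mainly through its seed, the bases from position 2 to 8, and miRNAs with the same seed are grouped as a family. The question of the comparison was whether the steady-state levels of miRNAs shift with the time of lenalidomide treatment in cells that hold much CRBN.

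RefSeq (GRCh38.p14) held a mature sequence for 330 of the 372 assays by name, with 264 distinct seeds. Some of the miRNAs with large increases are shown first because they include a pair with 1 seed that moved together. Sequences are written 5′ to 3′ with the seed in capitals.
miR-135a-5p: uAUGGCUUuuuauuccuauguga
miR-135b-5p: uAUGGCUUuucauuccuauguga
miR-205-5p: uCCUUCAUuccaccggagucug
miR-455-5p: uAUGUGCCuuuggacuacaucg
miR-142-3p: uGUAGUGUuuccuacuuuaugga
miR-144-3p: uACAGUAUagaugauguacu
miR-22-3p: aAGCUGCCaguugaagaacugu

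The next set holds the miRNAs with large decreases, and, after each of the last 3, an assay on the array that shares its seed but was not called lower. Of these assays miR-381-3p also moved down, just short of 3 fold.
miR-191-3p: gCUGCGCUuggauuucgucccc
miR-708-5p: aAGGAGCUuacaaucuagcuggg
miR-302c-3p: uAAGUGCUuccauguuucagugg
miR-379-5p: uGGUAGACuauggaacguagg
miR-300: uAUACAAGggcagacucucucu
miR-381-3p: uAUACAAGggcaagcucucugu
miR-376a-3p: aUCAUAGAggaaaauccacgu
miR-376b-3p: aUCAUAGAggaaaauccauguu
miR-212-3p: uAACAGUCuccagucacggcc
miR-132-3p: uAACAGUCuacagccauggucg

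In GRCh38.p14 miR-135a-5p lies in MIR135A1 at chr3:52294270-52294292 on the minus strand and miR-135b-5p in MIR135B at chr1:205448361-205448383 on the minus strand. miR-205-5p lies in MIR205 at chr1:209432166-209432187 on the plus strand, miR-142-3p in MIR142 at chr17:58331245-58331267 on the minus strand and miR-191-3p in MIR191 at chr3:49020631-49020652 on the minus strand. miR-300, miR-381-3p, miR-376a-3p, miR-376b-3p and miR-379-5p all lie on chromosome 14, in a stretch that is described with its other members below.

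The 3 arrays were not read at the same overall signal. The 6 control wells for small RNAs (5 SNORD small nucleolar RNAs and the spliceosomal RNA RNU6-2) had a mean Ct of 20.8 in un-treated cells, 19.1 at 3 days and 18.7 at 5 days. The mean Ct over the 372 miRNAs was 28.2, 26.1 and 26.4 on the same arrays. Every level below is therefore given relative to the mean of the 6 wells of its own array. After this step the 6 wells themselves differed between 5 days and no treatment by -0.26 to 0.30 on the log2 scale (SD 0.22), and between 5 days and 3 days by -0.41 to 0.42 (SD 0.30). The 2 positive PCR control wells, which hold template placed by the maker and do not depend on the RNA, read 1.06 cycles earlier at 5 days than without treatment and 0.86 cycles later than at 3 days (a difference of -0.86 on the scale used). The 2 wells of a pair lay 0.27, 0.51 and 0.60 cycles apart on the un-treated, 3 day and 5 day arrays. The part of this offset in the levels was not tested.

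Ct values were capped at 35. An assay at the cap on 1 of the 2 arrays gave a bound, written as "at least", and an assay at the cap on both gave no value. Between 5 days and no treatment, 363 of the 372 miRNAs had a value, 345 of them measured on both arrays and 18 at the cap on 1. The 9 without a value were miR-122-3p, miR-137, miR-208b-3p, miR-217, miR-221-5p, miR-340-3p, miR-34c-5p, miR-377-5p and miR-606. Of the 18 at the cap on 1 array, 2 were at least 3 fold higher, 3 were at least 3 fold lower and 13 gave a bound that could not be called. Such a bound was short of 3 fold or, as for miR-519d-3p below, lay on the side that it does not bound.

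After 5 days 19 of the 363 miRNAs (5.23%) lay at or above 3 times their un-treated level and 40 (11%) were lower by 3 fold or more. The median over all of them was -0.14 on the log2 scale, and 251 values (69.1%) lay within 2 fold. Bounds are included there by their own value, and the change behind a bound may be larger. RNA was measured in bulk, so a smaller share of cells holding an miRNA and less of it per cell cannot be told apart. The split between higher and lower calls moved with the normalizer: it was 15 to 43 with the 5 SNORD wells, 15 to 44 with the reverse transcription control wells, 28 to 31 with RNU6-2 alone, 31 to 31 with the mean of all miRNAs measured on the 3 arrays, and 72 to 18 with the positive PCR control wells, which leave any difference in RNA input in place. The last 2 shifted the median of all miRNAs to 0.10 and 0.89. Just inside the limit lay miR-10a-3p at 1.59 and miR-411-5p at -1.60, and just outside it miR-499a-5p at 1.51 and miR-519d-3p, whose bound of -1.59 came from an un-treated array at the cap and so could not count as a decrease.

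**Figure D1:**
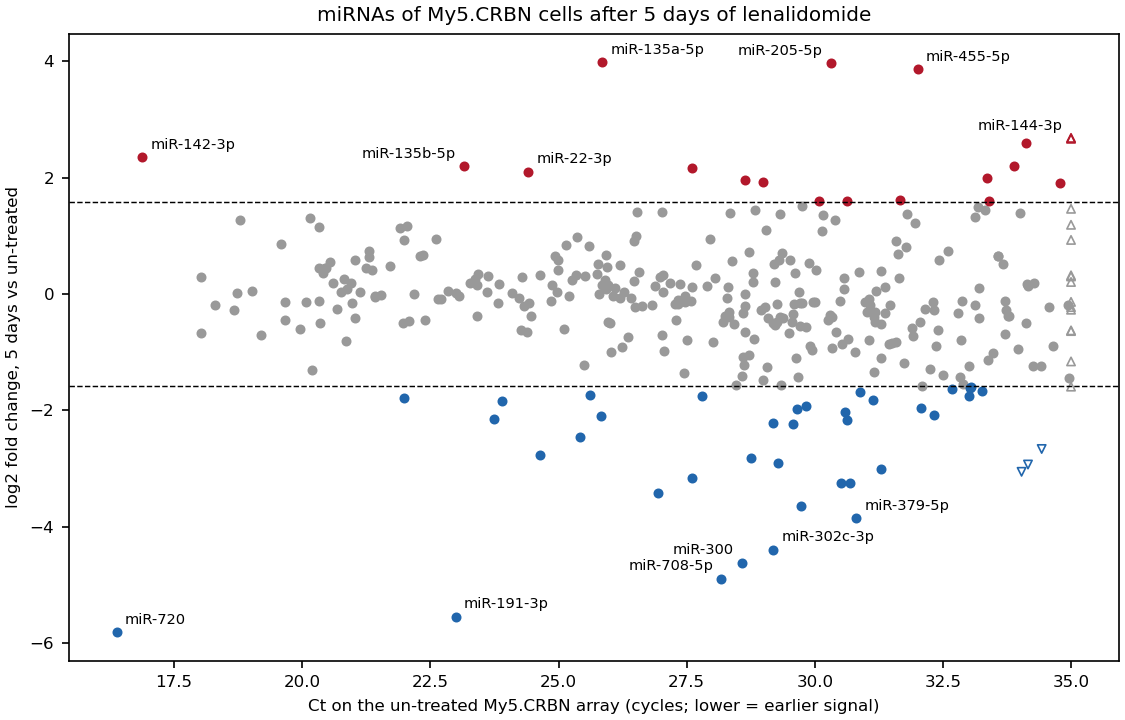
Log2 fold change of each miRNA between 5 days of lenalidomide and no treatment in My5.CRBN cells (vertical axis) against its Ct on the un-treated array (horizontal axis, cycles). Red and blue points were at least 3 fold higher or lower (dashed lines), and open triangles pointing up or down are lower or upper bounds of assays at the cap on 1 array; miR-720 and miR-191-3p stood out as decreases among assays with an early Ct.

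Among miRNAs measured on both arrays, the 3 largest increases were in miRNAs known from tissues other than blood. miR-135a-5p, a regulator described in several solid cancers, had a Ct of 25.9 in un-treated cells, 20.7 at 3 days and 19.8 at 5 days. Relative to the control wells it was 15.8 fold higher at 5 days than in un-treated cells (log2 3.98). Most of that difference was already present on the 3 day array (log2 3.43 over un-treated), and the 5 day level was 1.47 fold the 3 day level. miR-135b-5p, which shares its seed and differs from it at 1 of the 23 positions compared, read 23.2, 19.8 and 18.9 and was 4.60 fold higher (log2 2.203). Assays as alike as these may read part of each other's template, which was not tested.

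miR-205-5p, a marker of squamous and basal epithelium, read 30.3 cycles in un-treated cells, 25.4 at 3 days and 24.3 at 5 days, 15.7 fold higher at 5 days. miR-455-5p, known from cartilage, read 32.01, 27.10 and 26.06, 14.5 fold higher. For both, the 3 day and 5 day arrays lay close together and apart from the un-treated array: the change between 3 and 5 days was 0.78 and 0.68 on the log2 scale, under the 3 fold limit.

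miR-142-3p, a miRNA made in nearly all blood cells, behaved otherwise. It read 16.9 cycles in un-treated cells, 15.76 at 3 days and 12.43 at 5 days, the earliest Ct of any miRNA on the 5 day array. Its level at 3 days was -0.61 (log2) from that of un-treated cells, while at 5 days it was 5.11 fold higher than without treatment and 7.82 fold higher than at 3 days. Its level at 5 days (log2 6.27 relative to the control wells) lay above all 11 other arrays of the series, which ran from 2.42 to 3.98 with a median of 3.81. The other arm, miR-142-5p, read 21.7, 21.0 and 19.1 cycles, and at 5 days it was at 0.48 from un-treated cells and 1.499 from 3 days, both short of 3 fold.

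The other increases included both arms of miR-22, a miRNA linked to haematopoietic differentiation and tumour suppression. miR-22-3p read 24.4, 21.2 and 20.2 cycles and was 4.30 fold higher at 5 days, and miR-22-5p was higher by 1.59 on the log2 scale. miR-143-3p and miR-145-3p, products of neighbouring hairpins known from smooth muscle and fibroblasts, were 4.48 and 6.04 fold higher. They were 2 of the 4 assays of the list (50%, against 5.23% of all miRNAs). Their other arms miR-143-5p and miR-145-5p were at -0.84 and -0.53. The list median of 0.82 ran from -0.03 to 1.85 over the normalizers and the cap. miR-223-3p, a myeloid miRNA, was 3.88 fold higher. The erythroid miRNA miR-144 was at the cap in un-treated cells. Its 3p arm read 30.2 cycles and its 5p arm 30.2 cycles at 5 days, which made them at least 6.35 and at least 6.42 fold higher.

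The remaining members of the higher group were miR-30c-1-3p (log2 2.19), miR-376b-3p (1.99), miR-10a-5p (1.93), miR-580-3p (1.91), miR-600 (1.61), miR-589-3p (1.60) and miR-10a-3p (1.59). Of the 19 miRNAs in the group, 12 had a level at 5 days in My5.CRBN cells above those of all 11 other arrays. In the lower group 21 of 40 had a level below all others. Both groups were chosen by this same array, which favours such ranks, and the share over all miRNAs was not computed.

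**Figure D2:**
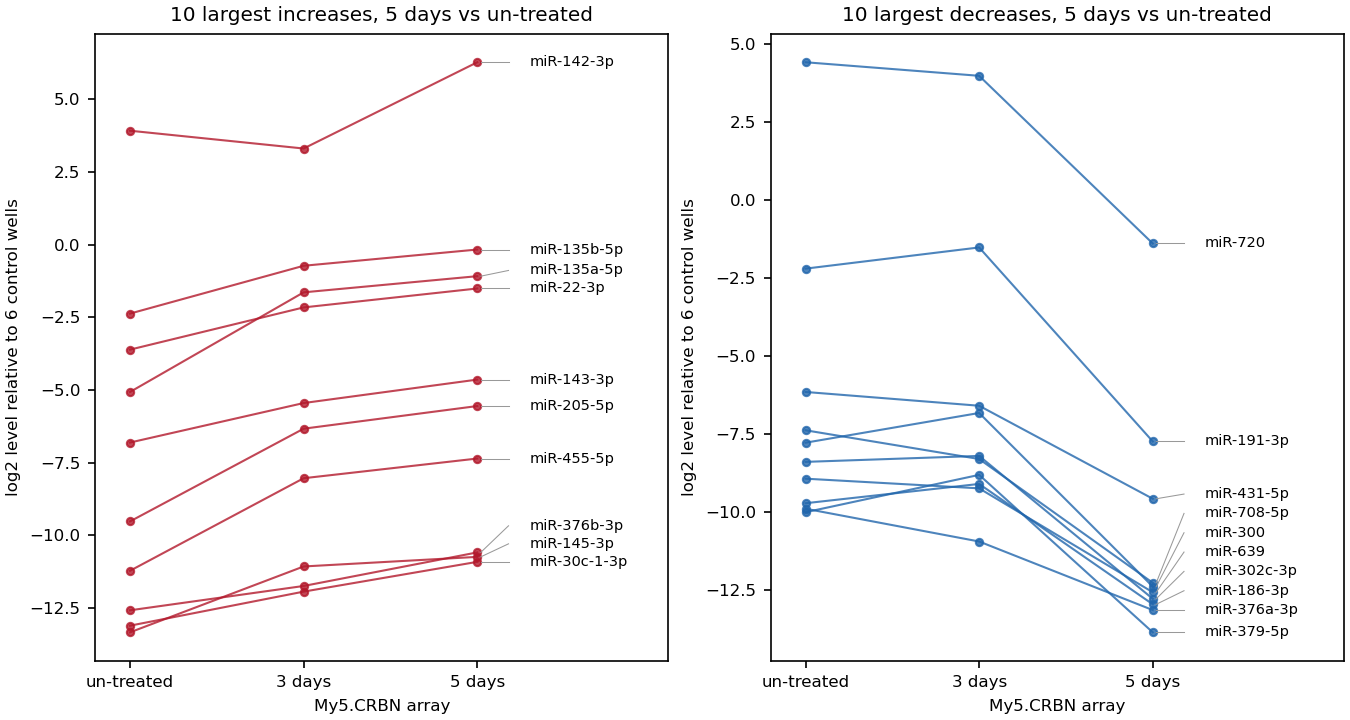
Log2 level relative to the mean of the 6 control wells (vertical axis) on the un-treated, 3 day and 5 day My5.CRBN arrays, for the 10 largest increases (left, red) and the 10 largest decreases (right, blue) between 5 days and no treatment among miRNAs measured on both arrays. Each line is 1 miRNA with 1 array a point; miR-205-5p, miR-135a-5p and miR-455-5p had most of their difference by 3 days, miR-142-3p and the decreases lay at 5 days.

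The largest decrease among miRNAs measured on both arrays was in miR-720, which was first listed as a miRNA and is now regarded as a fragment of a transfer RNA. It read 16.4 cycles in un-treated cells, the earliest Ct of that array, 15.1 at 3 days and 20.1 at 5 days. Relative to the control wells it was 56.2 fold lower than in un-treated cells and 41.6 fold lower than at 3 days. On the other 11 arrays its log2 level ran from -0.54 to 4.42, and at 5 days it was -1.40.

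miR-191-3p, the arm of the miR-191 hairpin that is usually the minor one, read 22.99 cycles in un-treated cells, 20.59 at 3 days and 26.45 at 5 days. It was 46.6 fold lower than in un-treated cells and 74.7 fold lower than at 3 days, the largest decrease of the second comparison among miRNAs measured on both arrays. The un-treated and 3 day arrays differed by 0.68 (log2), so the 2 differed less from each other than either did from the 5 day array.

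miR-708-5p read 28.2, 27.4 and 31.0 cycles and was 29.7 fold lower than in un-treated cells. miR-300, a member of the chromosome 14 cluster, read 28.6, 25.9 and 31.1 and was 24.5 fold lower, and miR-302c-3p, a miRNA of embryonic stem cells, read 29.2, 27.3 and 31.5 and was 21.0 fold lower. miR-379-5p, from the same cluster as miR-300, read 30.8, 27.9 and 32.6 and was 14.4 fold lower. In all 4 the 5 day array was the low one, in raw Ct as well as after normalization, although its control wells came 2.09 cycles earlier than those of un-treated cells.

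Below these came miR-639 (log2 -3.64), miR-431-5p (-3.42), miR-376a-3p (-3.25), miR-186-3p (-3.24), miR-212-3p (-3.16), miR-643 (-2.91), miR-124-3p (-2.82), miR-370-3p (-2.77) and miR-421 (-2.45). miR-581 was 8.01 fold lower. The 3 bounds belong beside them, since miR-224-5p, miR-514a-3p and miR-486-3p were at the cap at 5 days after reading 34.0, 34.2 and 34.4 cycles in un-treated cells, and were at least 8.31, at least 7.62 and at least 6.33 fold lower. The other 21 miRNAs in the lower group lay between -2.23 and -1.60.

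Of the 157 assays that read before cycle 28 without treatment, 5 were higher and 12 lower at 5 days (3.18% and 7.64%, against 5.23% and 11% of all miRNAs). The un-treated array that chose them is also the baseline here. Assays low on it that rose by 5 days are left out, so the split is partly set by the choice. The 5 were miR-142-3p, miR-135a-5p, miR-135b-5p, miR-22-3p and miR-143-3p. The 12 were miR-720, miR-191-3p, miR-431-5p, miR-212-3p, miR-370-3p, miR-421, miR-1290 (log2 -2.15), miR-425-3p (-2.10), miR-7-5p (-1.84), miR-324-5p (-1.79), miR-129-5p (-1.75) and miR-326 (-1.73). Of the 10 assays with the earliest Ct in un-treated cells, miR-720 and miR-142-3p were past 3 fold, and the other 8 (miR-20a-5p, miR-16-5p, miR-19a-3p, miR-106b-5p, miR-195-5p, miR-21-5p, miR-19b-3p and let-7f-5p) lay between -0.70 and 1.26.

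Both arms of 86 hairpins were on the array, and for 74 of them both arms were measured on both arrays. Their arms moved together within 2 fold in 49 hairpins and lay at least 3 fold apart in 14, with a median distance of 0.57 on the log2 scale. The widest was miR-708, whose 5p arm was at -4.89 and whose 3p arm was at 0.52. The 3p arm of miR-708 read 33.7 cycles in un-treated cells and 31.1 at 5 days.

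In miR-205 the 5p arm was at 3.97 and the 3p arm at -1.23, and in miR-191 the 5p arm, the one usually kept, was at -0.50 while the 3p arm was at -5.54. miR-191-5p read 20.4, 19.5 and 18.8 cycles over the 3 arrays, so that this arm came earlier at 5 days and the other later. In miR-186, miR-145, miR-143, miR-499a and miR-132 the arms lay 3.44, 3.13, 3.00, 2.74 and 2.52 apart. The other 6 of the 14 were miR-34a (2.29), miR-324 (2.023), miR-142 (1.87), miR-199a (1.70), miR-425 (1.60) and miR-181c (1.59). Both arms were called higher in 3 hairpins (miR-10a, miR-22 and miR-144), both lower in 1 (miR-124), and no hairpin had its arms called in opposite directions. In 15 hairpins exactly 1 arm was called. Calls are few over all miRNAs (5.23% higher and 11% lower), so nothing is concluded from the lack of opposite calls.

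**Figure D3:**
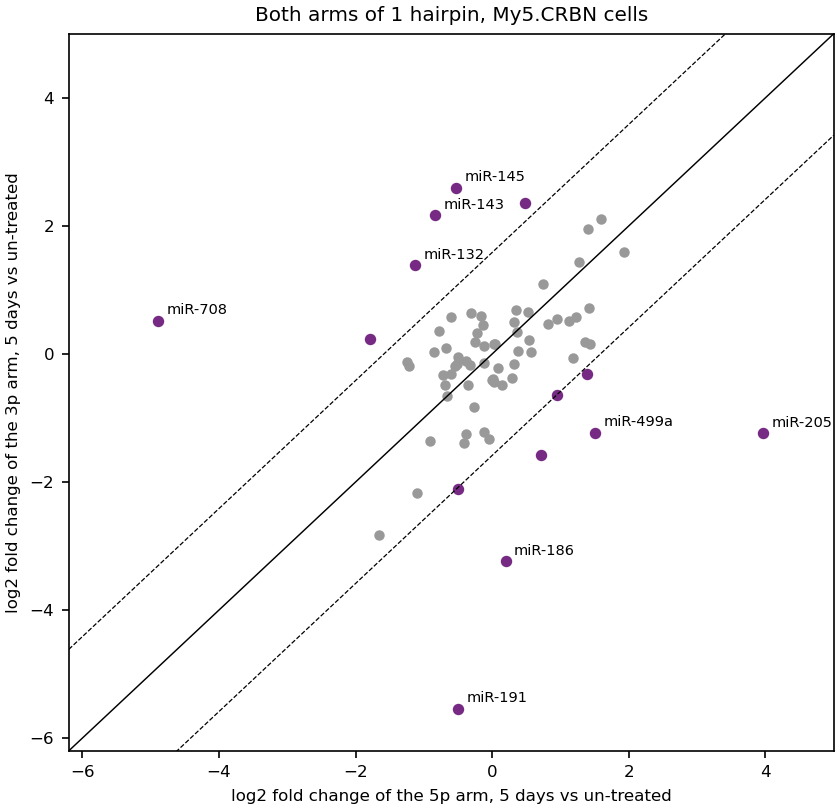
Log2 fold change between 5 days of lenalidomide and no treatment for the 5p arm (horizontal axis) and the 3p arm (vertical axis) of the 74 hairpins with both arms measured in My5.CRBN cells. Grey points lie within 3 fold of the line of equal change (dashed lines), and the 14 purple points lie outside; miR-708, miR-205 and miR-191 were the farthest from it.

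miRNAs with 1 seed did not all move alike. Of the 36 seeds shared by 2 or more assays (102 assays), 1 had more than 1 member higher and none lower, the miR-135 seed, and none had more than 1 member lower and none higher. Few of the 102 assays were called at all (over all miRNAs 5.23% were higher and 11% lower). This leaves little room for a seed with more than 1 called member, so nothing is concluded from these seed counts. The seed of miR-376a-3p and miR-376b-3p was the only one with a member in each direction: miR-376a-3p was 9.51 fold lower and miR-376b-3p 3.98 fold higher, although their printed sequences differ at 1 of 21 positions. miR-376a-3p read 30.69, 30.02 and 31.85 cycles and miR-376b-3p read 33.4, 30.8 and 29.3, so against un-treated cells the first came later at 5 days and the second earlier. As with the miR-135 pair, how far either assay reads the template of the other was not tested.

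miR-212-3p and miR-132-3p come from neighbouring hairpins on chromosome 17, known from neurons, and differ at 4 of 21 positions. miR-212-3p was 8.94 fold lower, while miR-132-3p was at 1.39. miR-300 and miR-381-3p differ at 3 positions, with log2 fold changes of -4.61 and -1.56. The seed of miR-302c-3p is held by 6 assays on the array, whose values ran from -4.39 to 0.93 with a median of -1.01, so other members lay below 0 as well. In each of these sets 1 member was past 3 fold lower.

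The 29 assays of the chromosome 14 imprinted cluster were the largest group of related miRNAs among the decreases. This cluster (DLK1-DIO3) is expressed from the maternal chromosome, mostly in brain and embryo, and the 29 lay between positions 100852409 and 101065981 of chromosome 14, a span of 214 kilobases. Of the 28 with a value, 11 were lower and 1 was higher at 5 days than in un-treated cells (39.3% lower, against 11% of all miRNAs), with a median of -0.73 against -0.14. The 11 were miR-300, miR-379-5p, miR-431-5p, miR-376a-3p, miR-370-3p, miR-432-5p, miR-485-5p, miR-382-5p, miR-377-3p, miR-323b-5p and miR-411-5p, and the member that was higher was miR-376b-3p. The other 16 ran from -1.56 (miR-381-3p) to a lower bound of 1.46 (miR-539-5p), so the members were not uniform.

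These assays gave late signals, with a median Ct of 30.7 in un-treated cells. To set them beside assays of like signal, Ct classes were taken from the un-treated My5.LV array, which is in neither My5.CRBN comparison. With a Ct of 28 to 32 there, 8 of 18 members (44.4%) and 14 of 111 other miRNAs (12.6%) were lower at 5 days, with medians of -1.16 and -0.33. With the positive PCR control wells as normalizer the median of all 28 members became 0.30. With the other normalizers and with a Ct cap of 32 it lay between -1.32 and -0.50, and it was below the median of all miRNAs in each.

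**Figure D4:**
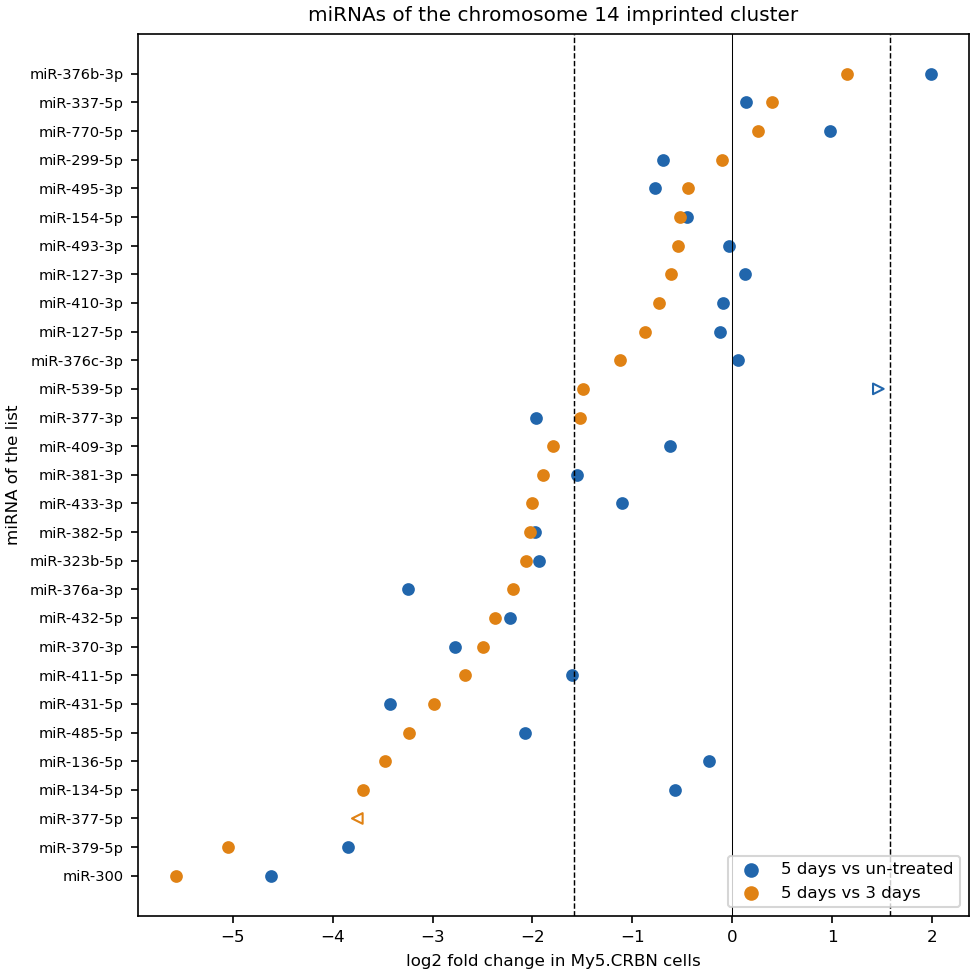
Log2 fold changes (horizontal axis) of the 29 miRNAs of the chromosome 14 imprinted cluster in My5.CRBN cells, 5 days against un-treated (blue) and 5 days against 3 days (orange), which share the 5 day array. Open triangles are bounds and dashed lines mark 3 fold; 11 blue and 16 orange points lie past 3 fold on the lower side.

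Of the 5 assays of the X chromosome cluster of miR-506 to miR-514, known from testis, 3 were lower (60%, against 11% of all miRNAs). miR-509-3p was at -2.02, miR-506-3p at -1.83 and miR-514a-3p at the bound given above, while miR-508-5p and miR-513a-5p were at 0.91 and 0.39. Of the 8 assays of the miR-302 cluster and miR-371 to miR-373, 1 was lower (miR-302c-3p), a share of 12.5%, with a median of -0.52. Of 9 assays of the chromosome 19 cluster 1 was lower, miR-520g-3p at -1.62, a share of 11.1%. The median un-treated Ct of these 9 was 35, the cap, and an assay at the cap there cannot be called lower. That share is therefore not set against the 11% over all miRNAs, to which the 12.5% of the miR-302 list is close.

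The 10 assays of the blood lineage list split, with 4 higher (40%, against 5.23% of all miRNAs) and 1 lower (10%, against 11%), and a median of 1.33 against -0.14. The 4 were miR-142-3p, miR-223-3p and both arms of miR-144, and the 1 was miR-486-3p. miR-150-5p, a lymphocyte miRNA, was at -1.30, and the erythroid miR-451a at 1.26. With a Ct cap of 32, at which both arms of miR-144 and miR-223-5p give bounds and miR-486-3p has no value, the median of the list was -0.11. Against 3 days the list had 1 assay higher (miR-142-3p, 10%, against 1.62% of all miRNAs) and 1 lower (miR-486-3p, 10%, against 22.2%). Its median was -0.11 beside -0.41 over all miRNAs. On the 3 day array miR-144-3p and miR-144-5p were already at bounds of 3.37 and 1.68 over un-treated cells, and miR-223-3p and miR-223-5p at 1.66 and 2.31.

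The families that make up much of the signal of most cells held no member past 3 fold. These were the let-7 family (9 assays, median -0.08), the family of miR-17, miR-20, miR-93 and miR-106 (5, -0.45), miR-18 and miR-19 (4, -0.12), miR-25, miR-32, miR-92 and miR-363 (5, -0.04), the list of miR-15, miR-16, miR-103 and miR-107 (8, 0.33), miR-130 and miR-301 (4, 0.12), miR-29 and miR-30 (8, 0.43) and miR-23, miR-24, miR-26 and miR-27 (7, 0.19). The sign of a median this close to 0 turned with the normalizer in the let-7 family, in miR-18 and miR-19 and in miR-25 and its relatives. Early signals in general held few calls. Among 56 miRNAs under 22 cycles on the un-treated My5.LV array, 1.79% were higher and 5.36% lower (5.23% and 11% of all miRNAs). With the positive PCR control wells the median of each list given here was above 0 except that of the X chromosome cluster, which was -0.79. The 4 assays of the miR-181 family, expressed in lymphoid cells, ran from 0.32 to 1.18, all above 0.

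No member was past 3 fold either in the list of miR-21, miR-221 and miR-222 (median 0.37, with miR-21-5p at 1.26), the p53-linked miR-34, miR-192, miR-194 and miR-215 (0.18), the miR-200 family (-0.19), the muscle list (0.17) or the miR-424 to miR-542 cluster (0.53). The NF-kB linked list held 1 lower assay of 4 (25%, against 11% of all miRNAs), miR-155-3p at -2.17, and miR-155-5p was at -1.11. The neuronal list held 3 lower assays of 12 with a value (25% as well; miR-212-3p, miR-124-3p and miR-129-5p) and, beside the other arm miR-124-5p at -1.66, a median of 0.09. In the list of miR-10, miR-99, miR-100 and miR-125, 1 of 7 assays, miR-10a-5p, was higher (14.3%, against 5.23% of all miRNAs). The sign of the median also turned in the miR-200 family and the neuronal list. Leaving out the positive PCR control wells, they ran from -0.29 to 0.05 and from -0.29 to 0.33 over the settings tried. No assay of the miR-548 family was on the array. miR-106a-3p and miR-106b-3p, the minor arms of hairpins in the family of miR-17, were at -0.89 and -0.83. Against 3 days miR-106a-3p was at -1.88, past 3 fold, and miR-106b-3p at -0.43.

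Between 5 days and 3 days the split was more one-sided. Of 370 miRNAs with a value, 82 (22.2%) were at least 3 fold lower at 5 days and 6 (1.62%) at least 3 fold higher, and the median log2 fold change was -0.41. With the 5 SNORD wells the counts were 83 lower and 4 higher, with the reverse transcription control wells 81 and 6, and with RNU6-2 alone 74 and 10. With the mean of all measured miRNAs as normalizer they were 51 lower and 25 higher and the median was 0.22, and with the positive PCR control wells 31 lower and 89 higher. This comparison shares the 5 day array with the first one, so the 2 are not independent, and the values of each are set side by side below. Just inside the limit lay miR-340-5p at a bound of 1.59 and miR-34c-3p at -1.61, and just outside it miR-570-3p at 1.54 and miR-105-5p at -1.58. The 3 day array was itself shifted against un-treated cells, with a median of 0.32 over 367 miRNAs (239 above 0 and 128 below). A decrease from 3 days is thus not always a level below that of un-treated cells.

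One set of these decreases was in miRNAs with a high level at 3 days. miR-129-5p, a neuronal miRNA, read 27.8 cycles in un-treated cells, 23.1 at 3 days and 27.5 at 5 days, 26.7 fold lower at 5 days than at 3 days and 3.37 fold lower than in un-treated cells. miR-1265 read 32.7, 27.9 and 32.2 and was 26.2 fold lower than at 3 days and 3.11 fold lower than in un-treated cells. miR-134-5p read 29.83, 24.99 and 28.32 and was 13.0 fold lower, and miR-125a-3p read 29.6, 24.7 and 27.8 and was 11.7 fold lower. The 3 day array was the high one in all 4. At 5 days miR-129-5p and miR-1265 were past 3 fold below un-treated cells as well, while for miR-134-5p and miR-125a-3p the un-treated and 5 day arrays differed by -0.57 and -0.34 (log2).

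Another set was low at 5 days against both arrays, among them miR-191-3p (log2 -6.22 against 3 days), miR-300 (-5.57), miR-720 (-5.38), miR-379-5p (-5.05), miR-302c-3p (-4.58), miR-581 (-4.17), miR-708-5p (-3.97) and miR-186-3p (-3.86). The 6 that were higher at 5 days than at 3 days were miR-142-3p (2.97), miR-551b-3p (1.97), miR-589-3p (1.86), miR-520c-3p (1.60) and 2 bounds, miR-802 (at least 4.12 fold) and miR-340-5p (at least 3.00 fold). miR-551b-3p read 28.8, 28.7 and 26.4 cycles, and against un-treated cells it was at 0.36. The next increases over 3 days fell short of 3 fold: miR-570-3p, miR-142-5p (1.499), miR-99a-3p (1.43), miR-181a-5p (1.42), miR-15b-5p (1.36) and miR-153-3p (1.24). Of the 157 assays before cycle 28 in un-treated cells, 1 was higher (miR-142-3p) and 13 were lower than at 3 days (0.637% and 8.28%, against 1.62% and 22.2%). Of the 13, 10 were also among the 12 that were lower than in un-treated cells, and the other 3 were miR-195-3p (-2.09), miR-346 (-2.00) and miR-1180-3p (-1.91).

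All 29 assays of the chromosome 14 cluster had a value in this comparison, and 16 (55.2%, against 22.2% of all miRNAs) were lower, with a median of -1.89. It stayed below 0 with each normalizer and cap tried, from -1.93 to -0.67. In the Ct class of 28 to 32, 10 of 18 members and 33 of 111 other miRNAs were lower (55.6% and 29.7%). The X chromosome cluster had the same 3 assays lower (60%, against 22.2%), with a median of -2.71 that ran from -2.75 to -1.49 over the normalizers and the cap. The 8 abundant family lists named above held no member past 3 fold in either direction here either, with medians from -0.07 to 0.68. At 3 days the chromosome 14 and X chromosome clusters lay above un-treated cells, with medians of 0.72 and 0.89 against 0.32 over all miRNAs. In them 22 of 29 and 5 of 5 assays were above 0. Their decreases from 3 days start from these raised levels, and the part of this in the lower calls was not tested.

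The share of lower calls differed with the Ct of the assay. With classes again taken from the un-treated My5.LV array, 5.36% of 56 miRNAs under 22 cycles, 8.45% of 71 at 22 to 26, 7.55% of 53 at 26 to 28, 15.7% of 70 at 28 to 30, 18.6% of 59 at 30 to 32 and 11.9% of 42 at 32 to 35 were lower at 5 days than in un-treated cells. Against 3 days the shares were 3.57%, 8.45%, 24.5%, 28.6%, 39.0% and 26.7%. The medians against 3 days were 0.40 and -0.05 in the first 2 classes and between -1.06 and -0.38 in the other 4. Late signals also vary more between arrays: between the My5.LV arrays without and with 3 days of lenalidomide, which had the smallest interquartile range (0.51) of the 5 comparisons computed, the SD of the log2 fold change was 0.28 for miRNAs under 26 cycles on the un-treated My5.CRBN array, 0.48 at 26 to 30 and 0.79 at 30 to 35. The part of Ct in these shares was not tested.

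The base composition of the called miRNAs was computed where a sequence was held. The 19 higher miRNAs had a median GC content of 40.9% (30% to 54.6%), the 34 lower ones with a sequence 47.6% (31.8% to 70%) and the 272 others 47.6%. All 3 sets had a median length of 22 bases.

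My5.LV cells gave the same contrast on arrays of their own. At 5 days against no treatment, 16 of 362 miRNAs (4.42%) were higher and 53 (14.6%) lower in My5.LV cells, with a median of -0.03. Of the lower calls, 24 were shared, which is 60% of the 40 in My5.CRBN and 45.3% of the 53 in My5.LV. Of the higher calls, 6 were shared, 31.6% of the 19 and 37.5% of the 16. No miRNA was called in opposite directions in the 2 lines. In 29 of the 40 lower miRNAs the 5 day arrays of the 2 lines held the 2 lowest levels of all 12 arrays. In none of the 19 higher ones did they hold the 2 highest. The 40 and the 19 were chosen by the 5 day My5.CRBN array itself, which favours such ranks. The share over all miRNAs was not computed, so nothing is concluded from these counts.

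Among the shared decreases miR-300 was at -4.61 in My5.CRBN and -4.28 in My5.LV cells, miR-379-5p at -3.85 and -3.67, miR-212-3p at -3.16 and -3.34, and miR-302c-3p at -4.39 and -5.51. miR-720 read 16.9 cycles in un-treated My5.LV cells, 16.96 at 3 days and 20.15 at 5 days, and was at -3.78 there against -5.81 in My5.CRBN cells. miR-143-3p was higher by 2.16 and 2.25. In each of these the 2 lines moved the same way, and differed by less than 3 fold except for miR-720.

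The difference between the lines could be computed for 336 miRNAs measured on all 4 arrays. The signed log2 fold change in My5.CRBN cells was at least 3 fold above that in My5.LV cells for 23 and at least 3 fold below it for 24. A larger decrease in My5.CRBN cells, as that of miR-720, thus counts among the 24, and a decrease in My5.LV cells alone can count among the 23. The median difference was -0.06 with an SD of 1.09, beside an SD of 0.41 for the 6 control wells. The counts of 23 and 24 moved with the normalizer, to 36 and 15 with RNU6-2 alone and to 175 and 0 with the positive PCR control wells. The widest was miR-205-5p, which read 30.7, 30.4 and 30.4 cycles in My5.LV cells without treatment, at 3 days and at 5 days. Its log2 fold change there was -0.26, a difference of 4.23 between the lines. miR-30c-1-3p differed by 3.49, miR-376b-3p by 3.23 and miR-375 by 3.12.

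miR-142-3p read 16.6, 16.6 and 15.8 cycles in My5.LV cells, a log2 fold change of 0.31, and differed by 2.04. miR-22-3p differed by 2.19, miR-135a-5p by 2.16 and miR-455-5p by 2.00, though the last 2 were past 3 fold in My5.LV cells too, at 1.82 and 1.86. On the other side were miR-191-3p (-2.57), miR-7-5p (-2.53), miR-205-3p (-2.38) and miR-376a-3p (-2.21). miR-342-3p read 25.4, 23.2 and 22.9 cycles in My5.CRBN cells but gave no signal under the cap in My5.LV cells at 5 days, after 24.3 and 24.5 cycles on the other 2 My5.LV arrays; the cause was not tested.

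**Figure D5:**
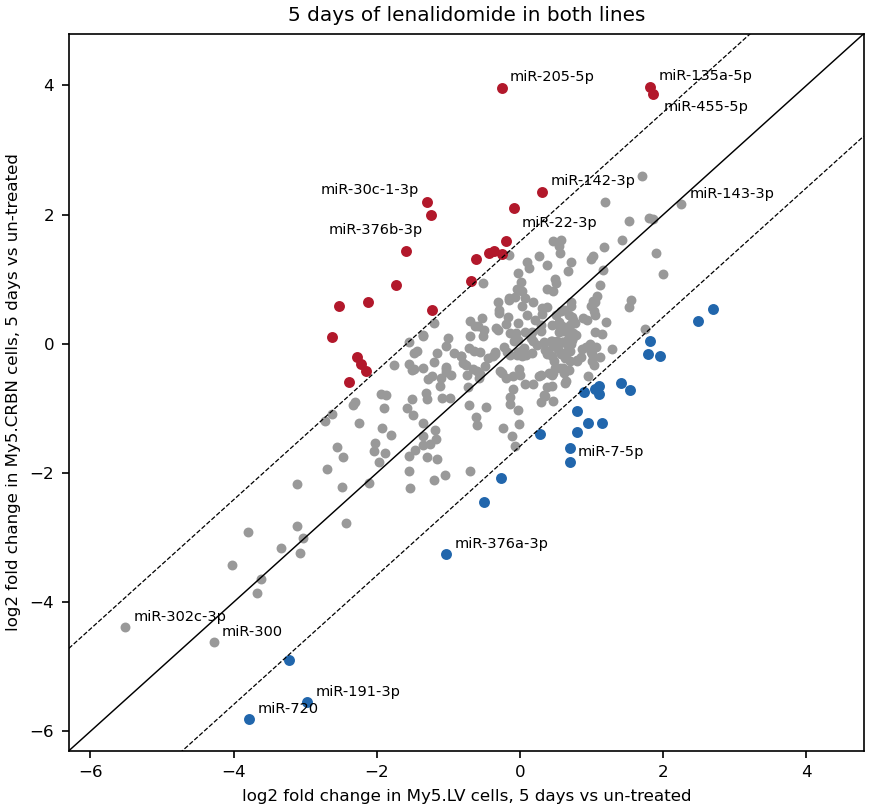
Log2 fold change between 5 days of lenalidomide and no treatment in My5.LV cells (horizontal axis) and My5.CRBN cells (vertical axis), for the 336 miRNAs measured on all 4 arrays, 1 array a condition. Red and blue points changed at least 3 fold more or less in My5.CRBN cells (dashed lines); miR-205-5p lay at 3.97 in My5.CRBN and -0.26 in My5.LV cells, and miR-300 and miR-302c-3p were low in both.

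The chromosome 14 cluster had 8 of 29 assays lower and none higher in My5.LV cells at 5 days (27.6% lower, against 14.6% of all miRNAs), with a median of -1.04 against -0.03. In the Ct class of 28 to 32, 3 of 18 members (16.7%) and 25 of 111 other miRNAs (22.5%) were lower, with medians of -0.87 and -0.59, so the share and the median ran in opposite directions. The class was taken from the un-treated My5.LV array, which is also the baseline of this comparison. The difference between the lines in this share was not tested.

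Markers of other cell types were read for the cells on the 3 arrays. The blood miRNAs miR-142-3p, miR-16-5p, miR-181a-5p and miR-150-5p came before 23 cycles on all 3, and miR-155-5p came late, at 31.3, 28.9 and 30.3 cycles. Of the 5 epithelial markers, miR-205-5p was the one past 3 fold: miR-200a-3p, miR-200b-3p, miR-200c-3p and miR-141-3p lay between -0.19 and 0.12. The liver marker miR-122-5p was at the cap in un-treated cells and read 31.7 cycles at 5 days. The muscle markers miR-1, miR-133a-3p, miR-133b and miR-206 lay between -0.89 and 0.85, and of the fibroblast pair miR-143-3p was higher while miR-145-5p was at -0.53. What part RNA of other cells has in these values was not tested.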

How the data were processed

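Total RNA was isolated with the miRNeasy Mini kit, reverse transcribed with the miScript II RT kit and read with SYBR Green on miScript miRNA PCR Arrays in an Applied Biosystems real-time PCR system. The deposited table holds the Ct of each well as read, with no normalization. A second deposited table holds the ratios the authors made against un-treated My5.LV cells with QIAGEN software, and was not used. Cells and arrays were single, so the number of arrays limits the precision, and no p-value was computed.

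Undetermined wells and values above it were set to a Ct of 35, the mean Ct of the 6 SNORD and RNU6-2 wells was subtracted, and differences were taken as log2 fold changes. Called means at least 3 fold; a bound counts only in the direction it bounds. The steps were tested on simulated data. Python 3.11.15, NumPy 2.4.6, pandas 2.3.3 and Matplotlib 3.10.9 were used. Alternatives were 4 normalizers, a Ct cap of 32 and 2 filters, and, chosen after seeing the data, the 2 positive PCR control wells.

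The miRNAs and lists were chosen with earlier results of these data known. Named by rule were, in each comparison, the 10 largest increases and decreases measured on both arrays; bounds past 3 fold against un-treated cells; miRNAs under Ct 28 in un-treated cells past 3 fold; the 10 earliest Ct values; other arms of these hairpins; miR-106a-3p and miR-106b-3p; and the extremes of each list. The rule chose 107 miRNAs, of which some other arms and list extremes short of 3 fold against un-treated cells are covered by their group's range, median or count alone. Other miRNAs were named after their values were seen.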

Additional observations from a re-analysis of the deposited data

Results flagged for a closer look

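The 2 wells for cel-miR-39-3p, a worm miRNA that is often added as a spike-in, gave a signal under the cap in 5 of the 6 wells of the 3 My5.CRBN arrays, and in 19 of the 24 wells of all 12, although the sources used here mention no spike-in. The lowest Ct of the pair was 33.0 in un-treated My5.CRBN cells, 31.5 at 3 days and 32.8 at 5 days, and the other well read 34.8, 33.8 and 36.7, the last of them above the cap. The 2 wells of an array thus lay 1.81, 2.38 and 3.86 cycles apart as read. The reverse transcription control wells of the same arrays lay 0.09, 0.11 and 0.17 cycles apart, and the positive PCR control wells 0.27, 0.51 and 0.60. What these wells read was not tested.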

How the results depend on the processing

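Depth here is the Ct: late wells give bounds or no value. No paired analysis was possible because each condition was a single array, and for the same reason no replicate could be left out. With the 5 SNORD wells and with the reverse transcription control wells the splits of higher to lower were 15 to 43 and 15 to 44 against un-treated cells, and 4 to 83 and 6 to 81 against 3 days. With RNU6-2 alone, miRNAs higher at 5 days than at 3 days numbered 10 in place of 6, and the difference between lines gave 36 and 15 in place of 23 and 24. With the mean of all measured miRNAs, 31 were higher than in un-treated cells with a median of 0.10, and against 3 days 25 were higher and 51 lower with a median of 0.22. With a Ct cap of 32, 12 and 3 were higher in the 2 comparisons and 12 changed more in My5.CRBN cells. With a Ct under 30 on at least 1 array, 22 were lower than in un-treated cells and 3 higher than at 3 days. The signed change was higher in My5.CRBN cells for 11. With the positive PCR control wells, chosen after seeing the data, the counts were 72 higher and 18 lower with a median of 0.89, and 89 and 31 with a median of 0.81, and 175 changed more and 0 less in My5.CRBN cells. Of the 42 named miRNAs past 3 fold against un-treated cells, 37 stayed so with RNU6-2 alone and with the mean of all miRNAs, and 31 with the positive PCR control wells. Of the 36 past 3 fold against 3 days, 36, 28 and 22 stayed so under these 3 settings. No called miRNA among the named ones turned its direction under the settings tried; with a Ct cap of 32 the bounds of miR-144-3p and miR-144-5p (-0.33 and -0.32) and of miR-520c-3p against 3 days (-0.35) no longer give a direction.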
